A study of Danio rerio with 9 samples.

Results

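Cytosolic ribosomal proteins are the protein parts of the ribosome, the particle that makes proteins from messenger RNA. The small subunit, whose proteins are encoded by the rps genes, holds the messenger RNA and decodes it. The large subunit, encoded by the rpl genes, joins amino acids into the protein chain. Each protein is present in about the same number in a ribosome, and in growing embryonic tissue their messenger RNAs are among the most abundant of the cell. They were described here in embryonic eyes of zebrafish with and without exposure to ethanol. Members were the genes whose symbol starts with rpl or rps and a digit, together with rplp0, rplp2 and rpsa, without the rps6k kinases. The symbol rplp1 was also allowed and had no probe set with a single symbol here. The rule gave 73 of 8793 genes with a single symbol on the array, of which 28 belong to the small and 44 to the large subunit by name. The remaining one, rps19bp1, encodes a protein that binds a ribosomal protein and is not itself part of the ribosome. The brightest probe set stood for each gene.

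Total RNA from dissected eyes was hybridized to 9 Affymetrix arrays, with 1 array per condition. Ethanol and control eyes were sampled at 27, 30, 36 and 48 hours post fertilization (hpf), and pretreatment eyes at 24 hpf. Neither the labels nor the protocols read here state the ethanol dose, the strain or the number of embryos per array. Groups follow the titles, with which the source names match, but the treatment characteristic contradicts them on 3 arrays. It marks the 30 hpf ethanol and 36 hpf ethanol arrays as untreated and the 36 hpf control array as ethanol. Levels are MAS5 signals, which measure how bright a probe set is. The arrays had been brought to a common scale, with a mean of 125 on each when the top and bottom 2% of probe sets were set aside. Differences and slopes are given as log2(signal + 5). Because no condition was repeated, the tests took their error from the 4 stages, or from how far arrays lay off a fitted line. The tests were made in limma, which moderates each probe set's variance, drawing it toward a value shared by all probe sets tested. The ± values are limma's moderated standard errors. Standard errors and p-values thus rest on the spread between these samples, borrowed in part from other probe sets, and some of it may be technical. The small number of arrays limits the precision.

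Of the 17 eye markers listed, 12 were measured and all 12 passed the filter on low signal. Among them were the eye field gene six3a, the retinal gene pax6a and the pigment gene dct, while rx1 was dim, with a mean signal of 27.6. The eye markers summed to 3724, 3809, 5104 and 6001 in ethanol eyes at 27, 30, 36 and 48 hpf, against 3853, 4596, 5017 and 6129 in control eyes. Of the 12, 6 had a mean ethanol difference above 0. The gene dct was lower in ethanol eyes at all 4 stages, as were 14.4% of all kept probe sets. The gene mab21l2 was higher at all 4, as were 17.8%. Markers of other tissues were measured too, and their sums were compared without a test. Of 14 listed brain genes, 12 were measured and 9 passed the filter. The summed signal of the 12 was 840, 1275, 1013 and 1539 in ethanol eyes at 27, 30, 36 and 48 hpf. In control eyes it was 970, 481, 663 and 642, so the sum was lower in ethanol eyes at 27 hpf and higher at the later stages. At 27 hpf the largest differences were those of emx3 (119 in ethanol, 266 in control eyes) and tbr1b (49.8 and 158). The median difference of the 9 that passed was 0.09 (log2) at 27 hpf. For yolk and liver plasma, 8 of 10 genes were measured and all 8 passed, with sums of 3641, 3657, 1037 and 815 in ethanol eyes, against 1901, 381, 1050 and 458 in control eyes, nearly equal at 36 hpf. For muscle, 8 of 10 were measured and 5 passed, with sums of 694, 737, 659 and 873 in ethanol eyes, against 598, 574, 533 and 3532 in control eyes. The muscle sum was thus higher in ethanol eyes at 27, 30 and 36 hpf, and the 48 hpf control array alone was far above the rest. At 30 and 36 hpf myl7 weighed most in this, at 421 and 164 in ethanol against 184 and 11.4 in control eyes. The gene mb went the other way, at 53.6 and 280 in ethanol against 231 and 344 in control eyes. For blood, 7 of 10 were measured and 6 passed, with sums of 3686 to 4674 in ethanol eyes and 2874 to 3679 in control eyes. Of these 6, 5 had a mean difference above 0. The gene lyz went the other way, at 563, 581, 520 and 544 in ethanol against 618, 652, 705 and 690 in control eyes. For skin, 6 of 7 were measured and all 6 passed. The skin sums were 4395, 4556, 5112 and 6429 in ethanol eyes, against 5086, 4447, 5533 and 6824 in control eyes. They were thus lower in ethanol eyes at 27, 36 and 48 hpf and higher at 30 hpf. At an adjusted p of 0.05 in limma's ethanol test, 3 brain, 2 blood and 1 yolk and liver plasma genes were called higher. The skin gene krt1-19e was called lower, and no eye or muscle gene was called. Of all kept probe sets, 1.62% were called higher and 0.624% lower. The part of other tissues in the ribosomal protein values was not tested. In whole eyes, fewer cells of a type and less RNA per cell cannot be told apart.

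Ribosomal protein genes filled the top of the array. Of the 73 members, 59 were among the 100 brightest probe sets and 7 among the 10 brightest. The mean signals of 69 members lay between 2143 and 4347, while the brightest probe set of any gene averaged 4527. These 69, here called the bright members, were set apart after their values were seen, and the next member below them, rps27.2, averaged 737. All 73 passed the filter that kept the upper 60% of probe sets by mean level. Together the members held 7.63% of the summed signal of all probe sets at 24 hpf. They held 8.09%, 8.24%, 9.21% and 9.97% in ethanol eyes at 27, 30, 36 and 48 hpf, against 8.10%, 9.13%, 7.66% and 9.03% in control eyes. The share was thus smaller in ethanol than in control eyes at 30 hpf, larger at 36 and 48 hpf, and nearly equal at 27 hpf.

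The brightest member was rpl19, a large subunit protein at the surface that faces the small subunit. Its signal was 3618 at 24 hpf. In ethanol eyes it was 4000, 4060, 4970 and 5421 at 27, 30, 36 and 48 hpf, against 3885, 4785, 3768 and 4621 in control eyes. The next 4 in brightness were rps23, which helps read the codon in the small subunit, rps25, used by some viral RNAs to start translation, rpl4, which lines the exit tunnel of the growing chain, and rpl7a. Their mean signals were 3885, 3837, 3816 and 3810. The 5 dimmest were rps19bp1 (103), rps27l (132), rpl7l1 (648), rps27.2 (737) and rplp2 (2143), and the first 4 of these are treated separately below. Levels of different probe sets depend on their probes and do not rank the genes by abundance.

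The bright members moved up and down together from array to array. Each gene was set against its own mean over the 9 arrays. At 24 hpf, 4 of 73 members were above their mean, and the bright members had a median shift of -0.20 (log2). In ethanol eyes 4, 1, 71 and 70 of the 73 members were above their mean at 27, 30, 36 and 48 hpf, against 7, 70, 0 and 69 in control eyes. The median shifts of the bright members at the same stages were -0.10, -0.07, 0.13 and 0.27 in ethanol eyes, against -0.09, 0.14, -0.19 and 0.10 in control eyes. Around each array's shift, the bright members scattered with a standard deviation of only 0.034 to 0.083 (log2). The arrays thus fell into high ones (30 hpf control, 36 hpf ethanol and both at 48 hpf) and low ones (24 hpf, both at 27 hpf, 30 hpf ethanol and 36 hpf control).

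**Figure D1:**
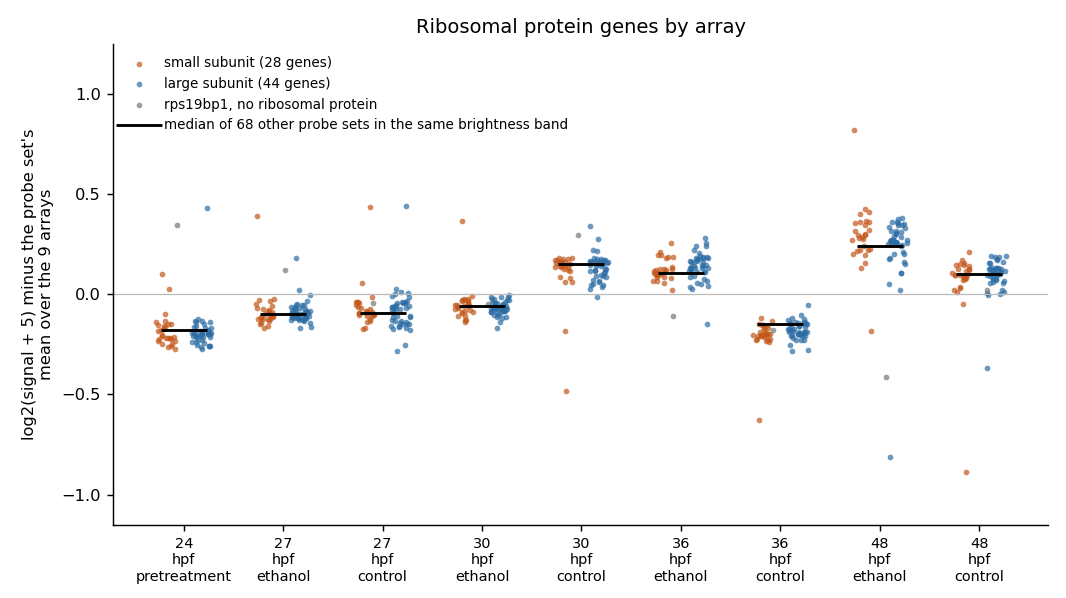
Level of each ribosomal protein gene on each array, as log2(signal + 5) minus the mean of the probe set over the 9 arrays (vertical axis), with arrays by age and ethanol left of control. Each point is a gene, coloured by subunit, and the black bars give the median of 68 other probe sets in the same range of brightness. Both subunits and the other bright probe sets shift together, for instance to 0.27 for bright members and 0.24 for the others in ethanol eyes at 48 hpf.

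Other bright probe sets had the same shift. The 68 probe sets of mean signal between 2143 and 4347 that did not belong to members had median shifts of -0.10, -0.06, 0.11 and 0.24 in ethanol eyes at 27, 30, 36 and 48 hpf, against -0.09, 0.15, -0.15 and 0.10 in control eyes. At 24 hpf their median shift was -0.18. Over the 9 arrays they differed from the bright members by at most 0.044 (log2). The median shift was thus shared by bright probe sets outside the naming rule. The 68 were chosen by brightness alone and include the ribosomal components faua and rack1 and the elongation factor genes eef1a1l1 and eef2b. The translation genes eef1b2, eef1g, naca and eif3f are in the band too. Not all 68 moved alike. In ethanol eyes 64 were higher and 4 lower at 36 hpf, and 55 higher and 13 lower at 48 hpf. The gene hnrnpa1b was lower at both stages. Probe sets without a single symbol were not left out, and how many of the 68 are ribosomal was not tested. The median of all 9301 kept probe sets shifted by -0.03 to 0.04 over the same arrays. The deposited values used here carry no mark for saturated spots, and how far a bright signal still follows the RNA was not tested.

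Between ethanol and control eyes of the same stage, the members lay in opposite directions at different stages. At 27 hpf, 33 of 73 were higher in ethanol eyes, against 55.6% of all kept probe sets, and their median difference was -0.01 (log2). At 30 hpf, 71 of 73 were lower in ethanol eyes, where 43.4% of all kept probe sets were, and 2 were higher, against 56.6%. The median difference was -0.21. At 36 hpf, 72 of 73 were higher in ethanol eyes, where 51.6% of all were, with a median difference of 0.33. At 48 hpf, 68 of 73 were higher in ethanol eyes, where 49.6% of all were, and 5 were lower, against 50.4%. The median difference was 0.18. The medians of the 68 other bright probe sets at 30, 36 and 48 hpf were -0.21, 0.27 and 0.12, with a value near 0 at 27 hpf. Those of all kept probe sets were 0.05, 0.07 and 0.02 at 27, 30 and 36 hpf and near 0 at 48 hpf.

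The size of these differences depended on the scaling of the arrays. When each array was scaled on the 68 other bright probe sets, an alternative added after the values were seen, the median at 27 hpf stayed near 0, and those at 30, 36 and 48 hpf became 0.03, 0.06 and 0.06. With quantile normalization they were 0.01, 0.00, 0.01 and 0.00. With arrays centred on their median they were -0.15, -0.46, 0.25 and 0.12, a setting that moved the median ethanol difference of all kept probe sets to -0.10, against 0.04 as deposited. The opposite directions at 30 and 36 hpf were thus present as deposited and with median centring. The difference at 30 hpf lost its sign when the bright end of the arrays was aligned. Quantile normalization and scaling on the 68 both align that bright end, where most members lie, so values near 0 follow largely from the construction. By the treatment characteristic, the 30 hpf arrays form no pair and the 36 hpf difference has the opposite sign.

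**Figure D2:**
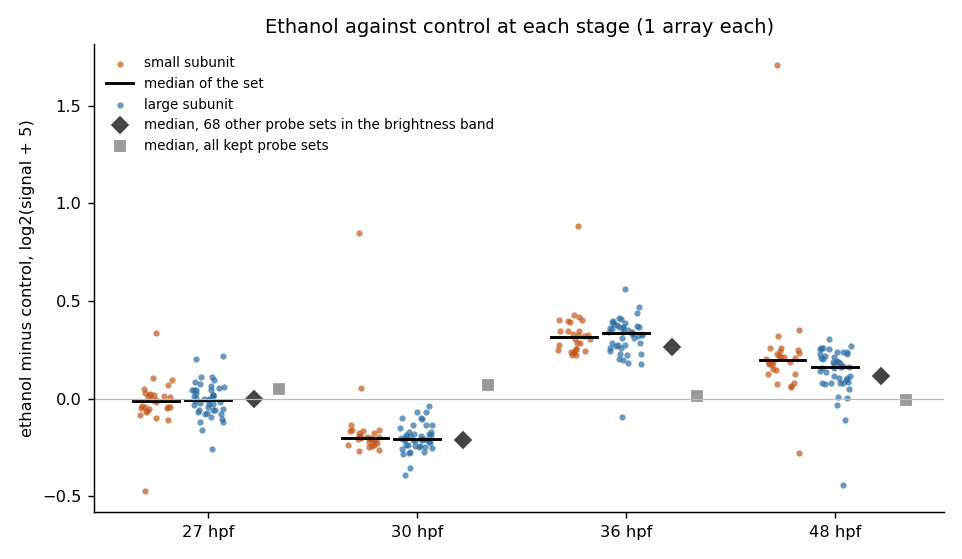
Ethanol minus control, in log2(signal + 5), for each small and large subunit gene at 27, 30, 36 and 48 hpf, with 1 array per group and stage. Bars are medians of each subunit, diamonds the 68 other probe sets of like brightness and squares all 9301 kept probe sets. The medians over all members are -0.01, -0.21, 0.33 and 0.18, and the highest point at each stage is rps27l.

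Over the 4 stages together, no ribosomal protein gene passed the ethanol test in limma, which had stage as a block. The count was 0 of 73, against 2.25% of all kept probe sets, made up of 1.62% higher and 0.624% lower in ethanol eyes. At an unadjusted p under 0.05 the count was 1 member, rps27l, against 23.9% of all kept probe sets. The median difference of the members was 0.07 as deposited and -0.07 with arrays centred on their median, so the scaling set its sign. The members with the largest positive differences after rps27l were rpl6, rpl24, rpl13 and rpl10, all of the large subunit. For rpl6 the difference was 0.15 ± 0.14 (log2, limma's moderated SE, adjusted p = 0.536). For rpl24, which forms a bridge to the small subunit, it was 0.14 ± 0.15. For rpl13 it was 0.13 ± 0.13 and for rpl10, which lies near the site where the peptide bond forms, 0.13 ± 0.13. The lowest values were those of rpl7l1 (-0.29 ± 0.13), rps19bp1 (-0.14 ± 0.15) and rps27.2 (-0.11 ± 0.15), followed by rpl11 and rpl35a with values close to 0.

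The gene rps27l stood apart from the other members. It is a paralog of the small subunit gene rps27, and in human cells it is a target of the tumour suppressor p53. Its signal was 133 at 24 hpf. In ethanol eyes it was 163, 160, 148 and 221 at 27, 30, 36 and 48 hpf, against 128, 86.9, 78.0 and 64.4 in control eyes. Each ethanol array was higher than every control array, and how many of all kept probe sets did the same was not counted. Control eyes were lower at each later stage, while ethanol eyes stayed above the 24 hpf level.

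The differences of rps27l were 0.34, 0.85, 0.89 and 1.71 (log2) at 27, 30, 36 and 48 hpf. It was the only member past 2-fold at any stage, at 48 hpf, where 4.8% of all kept probe sets were at least 2-fold higher. No member was 2-fold higher at 27, 30 or 36 hpf, where 0.914%, 3.56% and 1.35% of all were, and none was 2-fold lower at 48 hpf, where 2.15% were. Its mean difference was 0.94 ± 0.20 (log2, limma's moderated SE), and limma's adjusted p = 0.0546 missed the threshold of 0.05. It passed with a pseudocount of 20 (adjusted p = 0.0402), with the upper 30% of probe sets kept (0.0368) and without the 27 hpf arrays (0.0347). Over the other alternatives adjusted p ranged from 0.0514 to 1, a value reached with groups by the treatment characteristic, where the difference was 0.39. Unlike the bright members, rps27l was higher in ethanol eyes at both 30 and 36 hpf, as was its paralog rps27.2 (0.05 and 0.24). The gene rps27l was higher at all 4 stages, as were 17.8% of all kept probe sets, and it was the only member to be so.

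The product of age and ethanol, which asks whether the slope on age differs with ethanol, gave 1.51 ± 0.38 for rps27l (log2 over 24 hours; adjusted p = 0.144). No member passed that test, against 0.118% of all kept probe sets, and rps27l was the only member at an unadjusted p under 0.05, against 12.7% of all. In a fit of the 24 hpf array and the 4 control arrays alone, rps27l fell by 1.00 (log2) over 24 hours (adjusted p = 0.0236). With all 9 arrays and ethanol as a term, its slope was -0.37 ± 0.29 (adjusted p = 0.335). That slope was 0.02 without the 48 hpf control array and -0.93 without the 48 hpf ethanol array (adjusted p = 0.00875). The next largest products were those of rpsa (0.43 ± 0.32), rps23 (0.41 ± 0.32), rps26l (0.41 ± 0.33) and rpl5a (0.37 ± 0.32). At the low end, rps19bp1 stood at -0.30 ± 0.36, rpl7l1 at -0.22 ± 0.29 and rpl22l1 at -0.21 ± 0.31, while rps27.2 was at -0.03 and rpl35a at 0.01.

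The closest relatives of rps27l had other patterns of level. For rps27.1 the signal was 2391 at 24 hpf. It was 2528, 2730, 3226 and 3552 in ethanol eyes at 27, 30, 36 and 48 hpf, against 2604, 3222, 2444 and 3083 in control eyes, in step with the bright members. For rps27.2 it was 743 at 24 hpf. It was 714, 668, 786 and 643 in ethanol eyes, against 992, 643, 665 and 780 in control eyes. The groups overlapped, with lower ethanol values at 27 and 48 hpf and higher ones at 30 and 36 hpf. The mean ethanol differences were 0.08 ± 0.14 for rps27.1 and -0.11 ± 0.15 for rps27.2. A test of rps27l against its paralogs was not made, and whether the probes of these near relatives tell their RNAs apart was not tested.

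**Figure D3:**
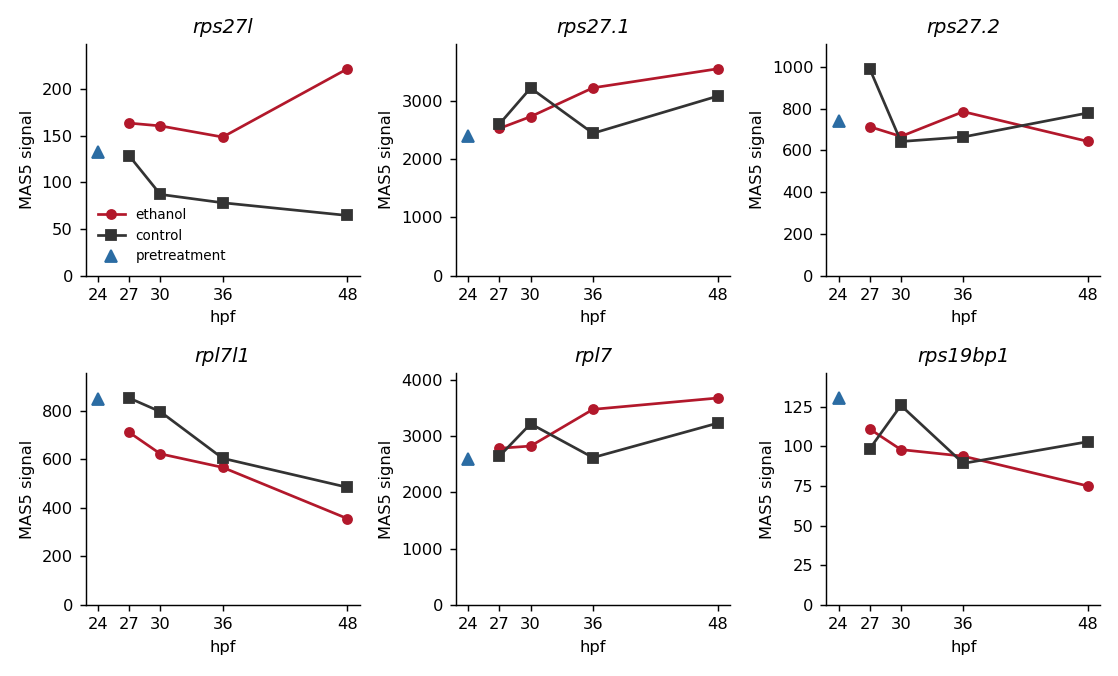
MAS5 signal of rps27l, rps27.1, rps27.2, rpl7l1, rpl7 and rps19bp1 against age in hpf, in ethanol (circles), control (squares) and pretreatment (triangle) eyes, with 1 array per point. The ethanol points of rps27l lie between 148 and 221, above the control points at 64.4 to 128. How many of all kept probe sets separate in this way was not counted. The ethanol points of rpl7l1 lie below the control point of the same stage each time, as for 14.4% of all kept probe sets.

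The paralog rpl7l1, a nucleolar protein linked in human cells to the assembly of the large subunit, had lower values in ethanol eyes. Its signal was 848 at 24 hpf. In ethanol eyes it was 710, 622, 566 and 355 at 27, 30, 36 and 48 hpf, against 852, 795, 603 and 484 in control eyes. Every ethanol value was below the control value of its stage, as for 14.4% of all kept probe sets, and no other member was lower at all 4 stages. Across stages the groups overlapped. The mean difference of -0.29 ± 0.13 (log2, limma's moderated SE) did not pass limma's test (adjusted p = 0.21). Over development rpl7l1 fell by 0.98 (log2 over 24 hours, SE 0.15, adjusted p = 4.14e-04), or by 0.88 in the 24 hpf and control arrays alone (adjusted p = 0.0202). Its relative rpl7, a core large subunit protein, was at 2597 at 24 hpf. It was at 2781, 2820, 3473 and 3674 in ethanol eyes, against 2641, 3216, 2616 and 3228 in control eyes, with a slope of 0.35 ± 0.16.

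The gene rps19bp1 had signals of 130.5 at 24 hpf and 111, 97.9, 93.8 and 75.0 in ethanol eyes at 27, 30, 36 and 48 hpf, against 98.4, 126, 89.2 and 103 in control eyes. The groups overlapped, and its slope of -0.39 ± 0.18 was not called (adjusted p = 0.111). Its dimmer probe set had a steeper slope of -0.69 and was called (adjusted p = 0.0239 in limma), as was the mean of both (-0.54, adjusted p = 0.0459). The brighter one was also called with arrays centred on their median (-0.55, adjusted p = 0.0341) or scaled on the other bright probe sets (-0.65, adjusted p = 0.0243).

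Over development, the slopes of the 69 bright members lay between 0.07 and 0.43 (log2 over 24 hours), while rps27.2, rps27l, rps19bp1 and rpl7l1 had slopes of -0.10, -0.37, -0.39 and -0.98. The slope on age over 9 arrays had a median of 0.30 (log2 over 24 hours, or 1.23-fold) over the 73 members, of which 69 were above 0. Slopes were above 0 for 63 of the 68 other bright probe sets and for 4393 of all 9301 kept probe sets. The median of all kept probe sets was -0.04. Only rpl35 rose by limma's adjusted p, against 17.6% of all kept probe sets, and only rpl7l1 fell, against 19.8%. This count of 2 members became 9 without the 30 hpf control array, and 1 without any of 6 others: the 24 hpf array, either 27 hpf array, the ethanol array at 30 or 36 hpf, or the 48 hpf control array. No member reached both the threshold and a 2-fold change, a rule that 9.07% of all kept probe sets passed as higher and 7.39% as lower. The 68 other bright probe sets had a median slope of 0.27. With arrays scaled on those 68, the members' median slope was 0.04, and with quantile normalization it was -0.01. The slope of the members as a group thus depended on the scaling. Both settings align the bright end of the arrays, where most members lie, so slopes near 0 follow largely from the construction.

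The steepest members were rps23, rpl35, rps2, rps25 and rpl24. For rpl35, which sits at the exit of the large subunit's tunnel, the signal was 3058 at 24 hpf. It was 3378, 3591, 4004 and 4681 in ethanol eyes at 27, 30, 36 and 48 hpf, against 3331, 3772, 3205 and 4172 in control eyes. Its slope was 0.43 ± 0.15 (adjusted p = 0.0457) by limma. Leaving out single arrays gave adjusted p between 0.0317 and 0.15, and the call was lost without either 48 hpf array, either 27 hpf array, the 24 hpf array, or the ethanol array at 30 or 36 hpf. With quantile normalization the slope was 0.05 (adjusted p = 0.783). The slope of rps23 was 0.43 ± 0.17 (adjusted p = 0.0614), with signals of 3303 at 24 hpf, 3475 to 5089 in ethanol eyes and 3354 to 4293 in control eyes. The slopes of rps2, which lies at the messenger RNA entry, rps25 and rpl24 were 0.41 ± 0.16, 0.41 ± 0.17 and 0.40 ± 0.18. Among the bright members the flattest was rps16, a small subunit protein that touches the transfer RNA, at 0.07 ± 0.17.

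**Figure D4:**
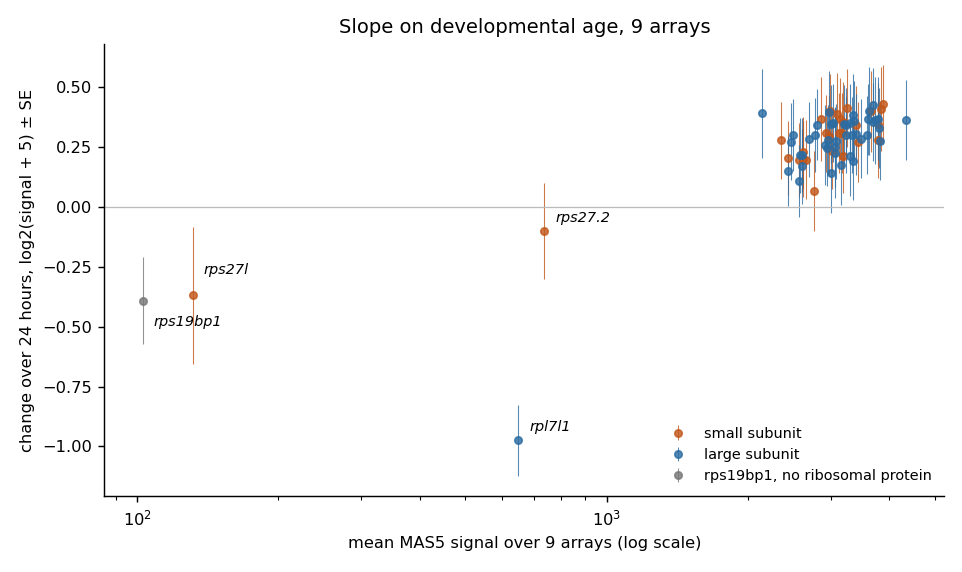
Change over 24 hours of development, in log2(signal + 5) with its standard error, against the mean signal over 9 arrays on a log axis, for each of the 73 genes, coloured by subunit. The bright members lie between 0.07 and 0.43, and rpl7l1 stands lowest at -0.98.

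The small and large subunits were set side by side as a description. The median slope was 0.30 for the 28 small and 0.30 for the 44 large subunit genes. Median ethanol differences at 27, 30, 36 and 48 hpf were -0.01, -0.20, 0.31 and 0.20 for the small subunit, and -0.01, -0.21, 0.33 and 0.16 for the large. The median signal of the small subunit genes was 2618 at 24 hpf. It was 2882, 2868, 3228 and 3720 in ethanol eyes, against 2832, 3360, 2624 and 3291 in control eyes. For the large subunit it was 2730 at 24 hpf, then 2946, 3003, 3438 and 3745 in ethanol eyes, against 2923, 3463, 2746 and 3253 in control eyes. The small minus large difference of these medians was -0.01 (log2) in ethanol and 0.02 in control eyes at 48 hpf, and -0.09 to -0.03 on the other 7 arrays.

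Several members with known special roles belonged to the bright group. The stalk of the large subunit, which recruits the elongation factors, was represented by rplp0 and rplp2. The signal of rplp0 was 2894 at 24 hpf. It was 3132, 3169, 3453 and 3818 in ethanol eyes, against 3182, 3667, 2912 and 3796 in control eyes. The signal of rplp2 was 1752 at 24 hpf. It was 1950, 1889, 2507 and 2537 in ethanol eyes, against 1925, 2477, 1848 and 2401 in control eyes. Slopes were 0.30 ± 0.16 for rplp0 and 0.39 ± 0.18 for rplp2.

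The proteins of rpl5a, rpl5b and rpl11 bind the 5S ribosomal RNA and, when ribosome assembly fails in mammalian cells, hold back the p53 inhibitor Mdm2. The signal of rpl11 was 2637 at 24 hpf. It was 2733, 2842, 3408 and 3222 in ethanol eyes, against 3054, 3390, 2743 and 3017 in control eyes. For rpl5a it was 2672 at 24 hpf, 2815 to 3740 in ethanol eyes and 2707 to 3426 in control eyes. For rpl5b it was 2883 at 24 hpf, 3123 to 4079 in ethanol eyes and 2933 to 3776 in control eyes. Mean ethanol differences were 0.07 ± 0.14 for rpl5a and 0.04 ± 0.14 for rpl5b and close to 0 for rpl11 (SE 0.14), with overlap between the groups in each case.

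The gene rps19, the one most often mutated in the human anaemia of Diamond and Blackfan, had a signal of 2542 at 24 hpf. It was 2658, 2793, 3195 and 3596 in ethanol eyes, against 2786, 3225, 2678 and 3436 in control eyes, with a slope of 0.40 ± 0.16 (adjusted p = 0.0636). The gene rpsa, whose protein is needed to mature the small subunit, had the widest range of the bright members, 0.69 (log2). Its signal was 3020 at 24 hpf. It was 3328, 3387, 3919 and 4864 in ethanol eyes, against 3348, 3942, 3218 and 3812 in control eyes. The range of rpl6 was 0.66. The narrowest ranges were those of rpl13a (0.26), rpl35a (0.27), rps21 (0.31), rpl39 (0.34) and rps26 (0.35).

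Of the other paralog pairs, rpl22 and rpl22l1 were equally bright, with mean signals of 2612 and 2613. At 48 hpf the signal of rpl22l1 was 2640 in the ethanol eye and 2848 in the control eye, whereas that of rpl22 was 3088 in the ethanol and 2616 in the control eye. Their ethanol differences at 27, 30 and 36 hpf were 0.09, -0.04 and 0.36 for rpl22l1 and -0.10, -0.15 and 0.27 for rpl22. The mean differences were alike, at 0.07 ± 0.13 for rpl22l1 and 0.06 ± 0.13 for rpl22. Relative to the median bright member of each array, rpl22l1 ranged over 0.40 (log2) and rpl22 over 0.17. The paralogs rps26 and rps26l averaged 2564 and 3144, with slopes of 0.20 ± 0.15 and 0.37 ± 0.17. Only 4 member genes had further probe sets, 5 in all, of which that of rpl21 (mean 7.39) did not pass the filter on low signal. The second probe set of rpl3 had a slope of 0.17 against 0.36 for its brightest, and those of rps27.1 had 0.15 and -0.01 against 0.37. The brightness rule thus decided the slope given for these genes.

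Genes outside the naming rule were compared through lists that were chosen with earlier results of these data known. The ribosomal components faua and rack1, outside the naming rule, had ethanol differences of 0.04 and 0.09 and slopes of 0.22 and 0.40, within the range of the bright members. Of 30 listed genes whose messenger RNAs carry the same pyrimidine start as ribosomal protein genes in mammals, 21 passed the filter. Most of the list are translation genes, but it also holds others, such as vim and npm1a. The median ethanol difference of these 21 was 0.04 and their median slope 0.17, with 0 called for ethanol. Over development 2 rose (eif3hb and vim) and 1 fell (npm1a). Over all kept probe sets, 1.62% were called higher and 0.624% lower for ethanol, and 17.6% rose and 19.8% fell over development. The elongation factor genes eef1a1l1 and eef2b had slopes of 0.36 and 0.37. Of 33 ribosome assembly genes, 1 had an ethanol difference above 0, the median was -0.38, 5 were called lower, and 30 fell over development. Of 58 mitochondrial ribosomal protein genes, 0 had a difference above 0, the median was -0.37, 4 were called lower and 33 fell over development. The cytosolic ribosomal protein genes were not tested against these lists. Of them 68 of 73 had a mean ethanol difference above 0, as did 75% of the 68 other bright probe sets and 55.6% of all kept probe sets, and their median was below 0 with arrays centred on their median.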

How the data were processed

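Expression in embryonic zebrafish eyes was measured on 9 Affymetrix arrays. The deposited values are MAS5 signals, a background-corrected intensity per probe set, made by the authors per the submitters' processing notes. The sources used here give no version of MAS5. The members, gene lists and tests were chosen with earlier results of these data known. Probe sets were named through the platform annotation (10802 with 1 symbol, 135 with several, 4680 with none), with 10718 symbols updated by gene ID. After 115 control probe sets were dropped from 15617, the upper 60% by mean log2(signal + 5) was kept (9301). With limma 3.58.1 in R 4.3.3, ethanol was fitted with stage as a block on 8 arrays. Slopes on age, and their product with ethanol, were fitted on 9. Variances were moderated over all kept probe sets with limma's eBayes. P-values were adjusted by Benjamini-Hochberg over all kept probe sets, with a threshold of 0.05. Named members were those called, the 5 most extreme each way in each fit, in brightness and in range, and a fixed set with known roles. The fits were run on simulated data with independent noise of equal size for all probe sets and no shift shared within an array. That setting differs from these data, so it cannot show how well the fits hold here. Alternatives covered scaling, pseudocount, filter, labels, probe set choice and arrays left out.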

Additional observations from a re-analysis of the deposited data

Results flagged for a closer look

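The median difference between ethanol and control eyes over the 73 ribosomal protein genes was -0.21 (log2) at 30 hpf and 0.33 at 36 hpf. It stood out because nearly all members lay one way at one stage and the opposite way at the other, with 71 of 73 lower in ethanol eyes at 30 hpf and 72 of 73 higher at 36 hpf. Each stage has 1 array per group, and the difference between the stages was not tested. The 68 other bright probe sets had medians of -0.21 at 30 hpf and 0.27 at 36 hpf. The treatment characteristic contradicts the titles on 3 of these 4 arrays.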

How the results depend on the processing

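The number of members called for ethanol was 0, and became 1 (rps27l) with a pseudocount of 20 or with the upper 30% of probe sets kept. Leaving out single stages gave 0 to 1. The number called over development was 2. It was 1 with quantile normalization, a pseudocount of 1, no filter, groups by the treatment characteristic, no ethanol term, log2 of age, or without the 30 and 36 hpf arrays, and 5 with a pseudocount of 20 or the upper 30% kept. Leaving out single arrays gave 1 to 9, the highest without the 30 hpf control array. The number also past 2-fold was 0. It became 1 with arrays centred on their median, with the 24 hpf and control arrays alone, without the ethanol term, or scaled on the other bright probe sets, and was 0 to 1 with single arrays left out. The median difference between ethanol and control eyes moved by more than the standard deviation of the 4 stage medians in 4 cases. At 30 hpf it was -0.46 with median centring and 0.0297 scaled on the other bright probe sets. At 36 hpf it was 0.0146 with quantile normalization and 0.0608 scaled on the other bright probe sets. Apart from those scalings by construction, the cause was not tested. No paired analysis by replicate number was possible because each group has 1 replicate. Single arrays, signals near the top of the range and conflicting labels limit all values.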
